A study of Mus musculus with 6 samples.

Results

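Meis1, Mecom and Prdm16 encode transcription factors that support the self-renewal of blood stem cells, and CpG methylation was measured across their loci in mouse LSK cells with and without Tet2 and Tet3. LSK cells are bone marrow cells that lack lineage markers and carry Sca-1 and c-Kit, a population rich in blood stem cells and early progenitors. The members were chosen by gene and by interval on the mm9 build: Meis1 on chromosome 11 from 18760000 to 18940000, Mecom on chromosome 3 from 29830000 to 30430000, and Prdm16 on chromosome 4 from 153670000 to 154030000. These intervals hold 13078 of the 20451903 CpGs listed, of which 1975 lie at Meis1, 5473 at Mecom and 5630 at Prdm16. Cells of Tet2/3 DKO mice (DKO, 3 samples) were compared with cells of wild-type mice (WT, 3 samples). The labels call the samples biological replicates, and give neither the mice's age or sex nor how or in which cells the deletion was made. Whole-genome bisulfite sequencing was used, in which methylated and hydroxymethylated cytosines are both read as methylated, so a level is the sum of both marks. The comparison addresses what loss of the 2 enzymes does to methylation in these cells. RNA was not measured, so nothing below is a statement on expression.

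Meis1 is a homeodomain protein that binds DNA together with Pbx and Hox proteins. Mecom encodes zinc finger proteins from a pair of distant starts: the upstream start gives the long MDS1-EVI1 form with a PR domain, and the downstream start gives the short EVI1 form without it. Prdm16 is a close relative of the long form of Mecom. All have been tied to the maintenance of blood stem cells and, when misexpressed, to leukemia. TET enzymes oxidise 5-methylcytosine to 5-hydroxymethylcytosine and on to forms that are replaced by plain cytosine. In mammalian genomes most CpGs are methylated, CpG-rich promoters are not, and developmental regulators often sit in wide unmethylated valleys. Enhancers within introns are typically partly methylated and are known as places of TET activity.

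The 4 start sites were placed on mm9 by matching the CpG spacing of RefSeq promoter sequences (GRCm38.p6) to the CpG positions of the table. All CpGs matched in each sequence, 15 at Meis1, 19 at the long Mecom start, 9 at the short Mecom start and 24 at Prdm16. All 4 lie on the minus strand: the Meis1 start at 18918972, the long Mecom start at 30408681, the short Mecom start at 29912126, 497 kb away, and the Prdm16 start at 154010982. Positions below are given from 1 on mm9 and as distances downstream of the start in the direction of transcription. No gene models on mm9 were used, so exons and introns are not told apart. The 250 bases before each start are shown because at most 2 methylated reads were found in any of them in either genotype, whereas differences lay kilobases downstream. Each runs 5′ to 3′ on the minus strand, with CpGs in capitals.
Meis1, chr11:18918973-18919222: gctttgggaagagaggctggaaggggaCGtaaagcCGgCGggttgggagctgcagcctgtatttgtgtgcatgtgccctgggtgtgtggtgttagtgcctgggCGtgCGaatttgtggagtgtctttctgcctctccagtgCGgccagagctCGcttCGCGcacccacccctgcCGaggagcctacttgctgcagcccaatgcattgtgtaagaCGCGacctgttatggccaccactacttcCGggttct
Mecom long start, chr3:30408682-30408931: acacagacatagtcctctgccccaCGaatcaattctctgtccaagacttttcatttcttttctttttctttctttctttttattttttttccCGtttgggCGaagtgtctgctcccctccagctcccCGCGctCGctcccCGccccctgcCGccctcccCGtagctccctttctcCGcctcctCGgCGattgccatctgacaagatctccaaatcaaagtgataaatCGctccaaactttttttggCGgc
Mecom short start, chr3:29912127-29912376: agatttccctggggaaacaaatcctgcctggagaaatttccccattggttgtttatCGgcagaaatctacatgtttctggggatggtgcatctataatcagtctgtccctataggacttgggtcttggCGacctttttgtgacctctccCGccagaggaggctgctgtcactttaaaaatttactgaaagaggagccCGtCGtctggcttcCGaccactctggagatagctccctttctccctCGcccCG
Prdm16, chr4:154010983-154011232: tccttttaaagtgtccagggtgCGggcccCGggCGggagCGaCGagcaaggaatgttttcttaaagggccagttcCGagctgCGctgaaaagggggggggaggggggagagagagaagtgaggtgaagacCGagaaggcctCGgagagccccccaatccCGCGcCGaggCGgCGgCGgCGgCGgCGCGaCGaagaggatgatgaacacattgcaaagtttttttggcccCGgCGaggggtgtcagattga
The promoter of Prdm16 has 22 CpGs in its 250 bases, the long Mecom promoter 14, the Meis1 promoter 13 and the short Mecom promoter 8.

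These promoters carried almost no methylated reads in either genotype. At the Meis1 promoter 0 of 207 reads were methylated in DKO and 0 of 167 in WT, which allows levels of up to 1.45% in DKO and 1.80% in WT, taking 3 counts as the limit of a count of 0. The long Mecom promoter had 0 of 163 methylated reads in DKO and 0 of 33 in WT, which allows up to 1.84% in DKO and 9.09% in WT. The short Mecom promoter had 2 of 95 in DKO and 0 of 104 in WT, which allows up to 2.88% in WT. The Prdm16 promoter had 0 of 342 in DKO and 0 of 242 in WT, which allows up to 0.877% in DKO and 1.24% in WT. Each read counts once per CpG within it, and these limits cover counting error only. No difference between the genotypes was seen at the promoters within these limits, which are widest for the long Mecom promoter in WT.

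The libraries held 4.99, 5.46 and 4.09 reads per CpG in DKO and 3.47, 3.56 and 3.46 in WT, so counting error was larger in WT. DKO replicate 2 stood apart in coverage over the genome. The methylation level of all autosomal CpGs averaged 81.6% ± 0.826 in DKO and 80.8% ± 0.314 in WT (SD, n = 3 each), a difference of 0.787 points (two-sided exact permutation test, p = 0.3). Mitochondrial reads, where residual methylation calls are mostly unconverted cytosines, were 1.71% ± 0.170 methylated in DKO and 1.28% ± 0.0797 in WT, a difference of 0.437 points. Of the markers of LSK cells and early progenitors, 5 starts were tested over 5 kb on either side, and their levels ranged widely. Kit was at 16.0% in DKO and 17.3% in WT, Cd34 at 19.1% in DKO and 22.1% in WT, and Flt3 at 44.0% in DKO and 35.5% in WT. Procr was at 72.2% in DKO and 62.0% in WT, and Cd48 at 75.0% in DKO and 77.9% in WT, the last near the 77.6 to 88.4% of 3 markers of other blood cells (both genotypes together). The Ly6a start, which encodes Sca-1, was not placed.

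Over whole loci, Meis1 was the least methylated, and the groups overlapped at each locus when reads were summed over all CpGs. The Meis1 locus was at 52.8, 47.9 and 50.99% in the DKO samples and at 49.7, 44.6 and 46.3% in the WT samples. The groups overlapped, and the difference of 3.71 points (SE 2.07) gave p = 0.2 in the exact permutation test. It was larger and the groups were apart with equal CpG weights (6.22 points, SE 0.483) or over CpGs covered by 3 or more reads per sample (7.23 points, SE 0.821), each with an exact permutation p = 0.1. The Mecom locus was at 83.1, 80.8 and 82.0% in DKO and at 80.8, 80.5 and 80.8% in WT, a difference of 1.25 points (SE 0.682, exact permutation p = 0.3). It was 0.678 points without DKO replicate 1, 0.467 after subtracting the autosomal level, and 2.38 over CpGs covered by 3 or more reads per sample, where the groups were apart. The Prdm16 locus was at 81.7, 83.0 and 84.7% in DKO and at 82.8, 80.3 and 78.8% in WT, a difference of 2.49 points (SE 1.47, exact permutation p = 0.2). It was 1.57 points without WT replicate 3, 1.39 over CpGs covered by 3 or more reads per sample, and 1.49 with equal CpG weights, where the groups were apart. With 3 samples against 3, the exact permutation test cannot go below p = 0.1. Of 12 such single values compared, the smallest adjusted p by the Benjamini-Hochberg method was 0.24. The valley widths at the Meis1 start and the short Mecom start, given below, are not among these 12 and were not adjusted.

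In 1 kb windows, 9 of the 591 windows tested at the 3 loci were called higher in DKO (1.52%), against 0.51% of all 774732 autosomal windows tested. No window of the loci was called lower, against 0.00774% of all windows. The count depended on the read minimum: 1 of 902 windows was called with at least 10 reads per sample and 1 of 211 with at least 40, in place of 20. Over all autosomes, 636 windows were called higher with at least 10 reads and 752 with at least 40, against 3952 with 20. The numbers of autosomal windows tested with at least 10 and at least 40 reads are not given here. Whether the loci exceed the background at those minimums thus cannot be read from these counts. A call required a Benjamini-Hochberg adjusted p under 0.05 in a quasi-binomial test of the 2 groups and a difference of at least 10 percentage points. At unadjusted p under 0.05, 62 windows were higher (10.5%) and 10 lower (1.69%), against 6.55% and 1.58% of all windows. With limma on log2 ratios, 0 windows were called at the loci and 0 over all autosomes. Meis1 had 3 called windows of 72 tested, Mecom 2 of 239 and Prdm16 4 of 280. Windows where every DKO sample exceeded every WT sample made up 20.8% of the tested Meis1 windows (15 windows), 11.7% at Mecom (28 windows) and 9.29% at Prdm16 (26 windows), against 9.05% of all windows. The reverse order was found in 1 window at Meis1, 12 at Mecom and 16 at Prdm16, that is 1.39, 5.02 and 5.71%, against 3.75% of all windows. The shares at Prdm16 are thus near the background in the first direction, and the Meis1 share is the one furthest above it. The DKO mean was the higher one in 57 of the Meis1 windows (79.2%), 138 of the Mecom windows (57.7%) and 154 of the Prdm16 windows (55%), against 58.2% of all windows. The median difference of a window was 2.97 points at Meis1, 0.63 at Mecom and 0.59 at Prdm16, against 0.93 over all windows.

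Taken over whole classes of windows, the differences were largest in partly methylated windows, those with a mean of 10 to 80% over all 6 samples. At Meis1, 19 such windows were at 52.3, 51.7 and 46.2% in the DKO samples and at 39.5, 30.2 and 35.9% in the WT samples. The DKO samples were all above the WT samples, with a difference of 14.9 points (SE 3.33, exact permutation p = 0.1). At Mecom, 28 such windows were at 59.2, 64.99 and 60.5% in DKO and at 48.0, 51.1 and 45.3% in WT, again without overlap, a difference of 13.4 points (SE 2.43, exact permutation p = 0.1). At Prdm16, 36 such windows were at 53.9, 57.8 and 57.0% in DKO and at 48.6, 45.4 and 45.7% in WT, also without overlap, a difference of 9.66 points (SE 1.56, exact permutation p = 0.1). The same class over all autosomes, 114826 windows, was at 55.9% ± 0.357 in DKO and 50.6% ± 0.231 in WT (SD, n = 3 each), a difference of 5.26 points. The difference exceeded the autosomal one by 9.61 points at Meis1 (SE 3.27), 8.17 at Mecom (SE 2.63) and 4.40 at Prdm16 (SE 1.61), each with an exact permutation p = 0.1. The mean was higher in DKO in 19 of the 19 windows at Meis1, 24 of 28 at Mecom and 28 of 36 at Prdm16, against 71.7% of the autosomal class. All DKO samples exceeded all WT samples in 10, 9 and 9 of these windows, against 19.1% of the autosomal class, and the reverse was found in 0, against 2.16%. Windows were classed by a mean that includes the samples compared. With windows classed by WT replicate 1 alone and that library left out, the differences were 13.3 points at Meis1, 11.2 at Mecom and 7.63 at Prdm16.

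**Figure D1:**
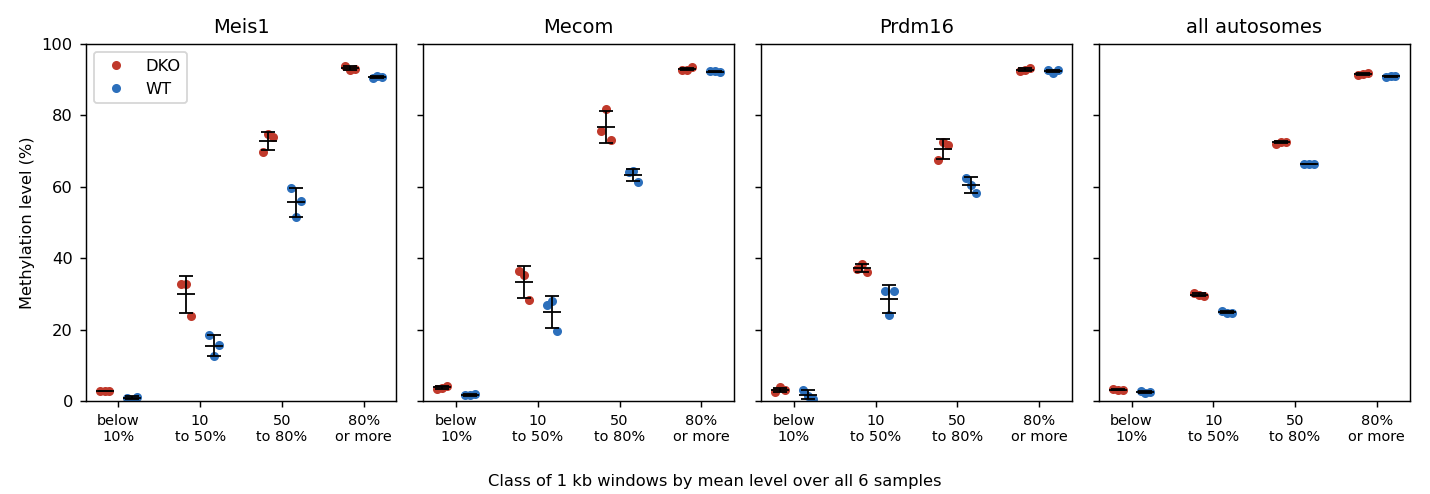
Methylation level (%) of tested windows in each level class, per sample, for the 3 loci and all autosomes; points are samples, black bars are means with SD (n = 3). In the classes of 10 to 50% and 50 to 80% the DKO samples lie above the WT samples at each locus, while the classes below 10% and of 80% or more differ by 2.52 points or less.

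At the ends of the scale the differences of whole classes were smaller, but single windows ranged widely. They ranged from -4.01 to 15.4 points at Meis1 below 10% and from -20.8 to 23.8 at Mecom at 80% or more. Of the called windows, 18910001 to 18911000 and 18913001 to 18914000 at Meis1 were below 10%. The called windows 30125001 to 30126000 at Mecom and 153958001 to 153959000 at Prdm16 were at 80% or more. In windows below 10%, Meis1 averaged 2.84% ± 0.0744 in DKO and 0.928% ± 0.414 in WT, Mecom 3.86% ± 0.397 in DKO and 1.79% ± 0.216 in WT, and Prdm16 3.20% ± 0.619 in DKO and 1.79% ± 1.29 in WT (SD, n = 3 each). These differences, 1.91 points at Meis1, 2.07 at Mecom and 1.41 at Prdm16, stand beside 0.653 points for the same class of the autosomes and 0.437 points in mitochondrial reads, whose part in them was not tested. In windows of 80% or more, Meis1 averaged 93.2% in DKO and 90.7% in WT, Mecom 93.0% in DKO and 92.2% in WT, and Prdm16 92.8% in DKO and 92.4% in WT. There the DKO samples were all above the WT samples in 33 of 473 windows of the 3 loci (6.98%) and all below in 29 (6.13%). Over the same class of the autosomes these shares were 7.18% and 4.10%, so the first was near the background.

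Meis1 starts within a wide unmethylated valley, whose downstream side measured shorter in DKO, in DKO replicate 3 only barely. The window over the start, 18918001 to 18919000, was at 0, 1.69 and 6.19% in the DKO samples and at 0% in every WT sample, where 0 of 291 reads allow up to 1.03%, and it was not called (adjusted p = 0.50). The valley was measured as the stretch around the start over which the level of 25 successive CpGs stayed under 30%. It was 10.2, 12.8 and 16.0 kb wide in the DKO samples and 16.6, 16.4 and 16.8 kb in the WT samples. The widest DKO valley was narrower than the narrowest WT valley, with a difference of -3.60 kb (SE 1.66, exact permutation p = 0.1). The DKO samples differed among themselves by more than the groups did, and without DKO replicate 1 the difference was -2.21 kb. The downstream side ended 9.33 kb ± 2.60 from the start in DKO and 12.4 kb ± 0.305 in WT. Its ends were at 6.84, 9.11 and 12.03 kb in the DKO samples and at 12.47, 12.72 and 12.11 kb in the WT samples. The groups were thus apart there, but DKO replicate 3 and WT replicate 3 nearly met. The upstream side ended 3.67 kb ± 0.278 from the start in DKO and 4.16 kb ± 0.492 in WT, and these overlapped. The windows at the edges of the low run over the start were at 7.36% ± 1.85 in DKO and 7.48% ± 1.78 in WT, and these overlapped. Those at the edges of the next low run, 18913001 to 18917000, were at 4.22% ± 0.823 in DKO and 0.515% ± 0.892 in WT. The groups were apart there (exact permutation p = 0.1).

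The 3 called Meis1 windows lie on that downstream side, between 4.97 and 11.97 kb from the start. The window 18913001 to 18914000, 4.97 to 5.97 kb downstream, was at 19.5, 13.1 and 17.02% in DKO and at 0, 2.01 and 1.34% in WT, a difference of 15.4 points (SE 1.96, adjusted p = 0.00331). It was low in every WT sample and above 10% in every DKO sample. The window 18910001 to 18911000 was at 17.6, 21.3 and 7.41% in DKO, while 0 of 151 reads were methylated in WT, which allows up to 1.99% (difference 15.4 points, SE 4.15, adjusted p = 0.0226). The 5 CpGs of this window that were read in every sample differed by 27 points on average. The window 18907001 to 18908000, at the valley's edge, was at 48.8, 40.7 and 22.6% in DKO and at 8.51, 4.29 and 20.8% in WT, a difference of 26.2 points (SE 9.19, adjusted p = 0.00146). Here DKO replicate 3 and WT replicate 3 nearly met, and with equal weight for each CpG read in all samples the difference was 12.01 points. Windows 18908001 to 18909000 and 18909001 to 18910000 lie between called ones. Neither was called, and the groups overlapped in both. The first was at 15.5, 5.73 and 4.65% in DKO and at 5.41, 1.48 and 11.5% in WT. The second was at 17.9, 41.2 and 5.08% in DKO and at 0, 5.04 and 23.3% in WT. Over the 7 kb that hold these windows, a stretch chosen after its values were seen, 138 CpGs were at 22.8, 25.7 and 12.3% in DKO and at 4.31, 2.80 and 10.8% in WT. Replicate 3 was thus the sample closest to the other genotype in both groups. Between 0 and 5 kb from the start the levels were 1.33% ± 1.22 in DKO and 0.696% ± 0.782 in WT (SD, n = 3 each), and they overlapped.

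**Figure D2:**
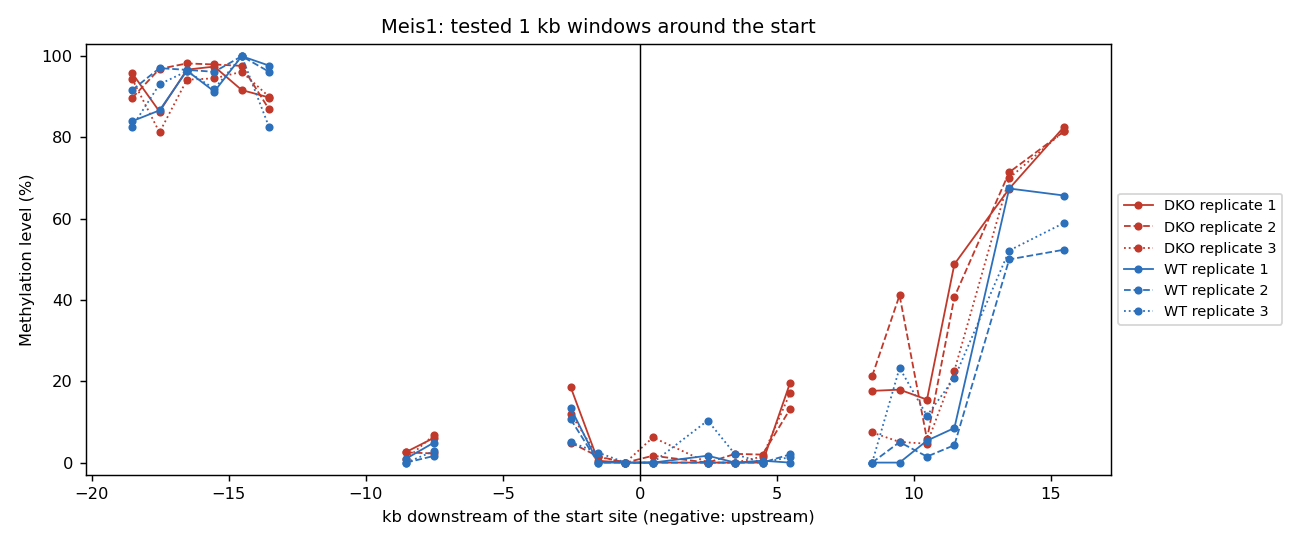
Methylation level (%) of each tested 1 kb window by its distance in kb from the Meis1 start (vertical line; negative is upstream), one line per sample, broken over untested stretches. All samples are near 0 at the start, and 4.97 to 5.97 kb downstream all DKO samples lie above all WT samples.

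Further into Meis1 the DKO mean was the higher one in each distance class. From 15 to 50 kb downstream it was 85.9, 88.3 and 85.8% in DKO and 75.7, 78.0 and 77.6% in WT, a difference of 9.58 points (SE 1.09, exact permutation p = 0.1, adjusted p = 0.225 over 18 distance classes of the 3 loci). From 50 to 150 kb it was 62.1, 59.6 and 61.9% in DKO and 59.97, 55.9 and 56.9% in WT, and the groups overlapped (difference 3.59 points, exact permutation p = 0.2). This class holds the low-methylated valley of another gene, 8430419K02Rik, which ended 149 kb downstream of the Meis1 start in both genotypes. The part of that valley in the level and the difference of the class was not tested. Of the windows not called, those with the smallest p were 18850001 to 18851000, 68.0 to 69.0 kb downstream, and 18785001 to 18786000, 133 to 134 kb downstream. The first was at 79.8, 77.8 and 100% in DKO and at 52.8, 42.2 and 51.7% in WT (difference 36.9 points, SE 7.85, adjusted p = 0.0541). The second was at 60.7, 79.5 and 69.8% in DKO and at 53.0, 32.9 and 37.0% in WT (difference 29.0 points, SE 8.19, adjusted p = 0.0600). In neither did the groups overlap. A stretch of 3 kb near 119 to 122 kb, chosen after its values were seen, was at 62.6, 70.2 and 58.3% in DKO and at 57.3, 31.9 and 33.0% in WT, with WT replicate 1 close to the DKO samples.

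The Meis1 interval holds another valley, around the start of the gene 8430419K02Rik, with widths that overlapped between the genotypes. It is the longest run of tested windows under 10% in the interval. Its width was 10.0, 9.73 and 9.87 kb in DKO and 9.79, 9.55 and 9.67 kb in WT, a difference of 0.207 kb (SE 0.112, exact permutation p = 0.2). The windows at its edges were at 19.4% ± 5.45 in DKO and 16.3% ± 5.90 in WT.

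At the long Mecom start, the core was unmethylated in both genotypes and the valley measured narrower in DKO. The window over the start, 30408001 to 30409000, had 0 methylated of 475 reads in DKO and 0 of 182 in WT, which allows up to 0.632% in DKO and 1.65% in WT. Just downstream, 30406001 to 30407000 was at 4.13, 1.04 and 4.43% in DKO and 0% in every WT sample, where 0 of 528 reads allow up to 0.568%, and it was not called (adjusted p = 0.171). The valley was 4.92, 5.13 and 5.18 kb wide in DKO and 5.85, 5.80 and 6.08 kb in WT, a difference of -0.831 kb (SE 0.117, exact permutation p = 0.1). Every DKO valley was narrower than every WT valley. The downstream end lay 4.22 kb ± 0.162 from the start in DKO and 4.98 kb ± 0.107 in WT, while the upstream ends overlapped. The windows at the edges were at 45.5, 46.0 and 43.4% in DKO and at 36.3, 36.5 and 29.5% in WT, a difference of 10.9 points (SE 2.44, exact permutation p = 0.1). A neighbouring valley upstream of the long start was 3.02 kb ± 0.259 wide in DKO and 3.20 kb ± 0.267 in WT, and these overlapped.

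At the short Mecom start, which gives EVI1, the groups were again apart on the downstream side. The window over it, 29912001 to 29913000, was at 8.33, 5.62 and 1.47% in DKO and at 4.17, 0 and 2.70% in WT (adjusted p = 0.894). The valley there was 3.11, 4.38 and 4.29 kb wide in DKO and 5.52, 5.61 and 5.67 kb in WT, a difference of -1.67 kb (SE 0.411, exact permutation p = 0.1). Its downstream end lay 2.53 kb ± 0.520 from the start in DKO and 4.16 kb ± 0.0704 in WT, and its upstream end 1.40 kb ± 0.203 in DKO and 1.44 kb ± 0.0469 in WT. The windows at its edges, both sides together, were at 56.2, 41.0 and 51.1% in DKO and at 54.5, 44.2 and 41.4% in WT. These overlapped (difference 2.73 points, SE 5.99, exact permutation p = 0.8). The 3 kb from 29908001 to 29911000, chosen after their values were seen, were at 36.5, 25.3 and 20.4% in DKO and at 14.5, 9.03 and 10.3% in WT. The lowest DKO sample was above the highest WT sample. This width and that at the Meis1 start were added after the longest valley of each interval had been measured.

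**Figure D3:**
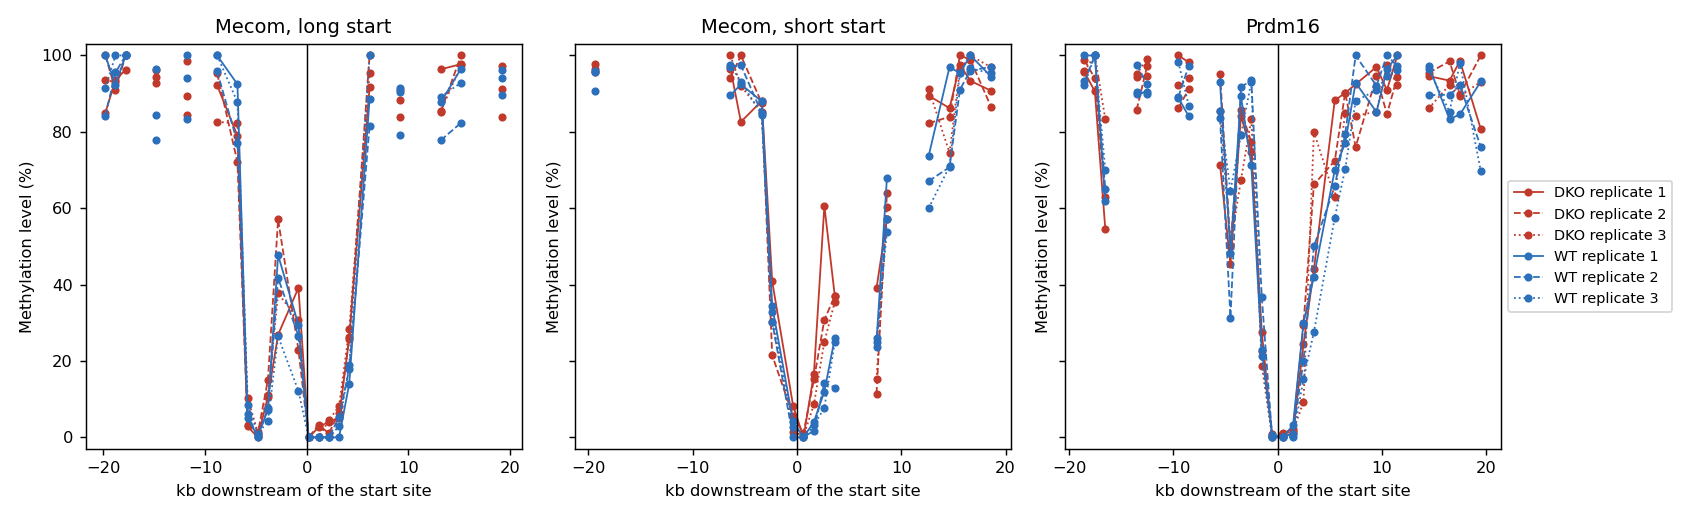
Methylation level (%) of each tested 1 kb window by its distance in kb from the long Mecom start, the short Mecom start and the Prdm16 start (vertical lines; negative is upstream), one line per sample, broken over untested stretches. Downstream of both Mecom starts the DKO lines climb closer to the start than the WT lines, whereas at Prdm16 they cross.

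**Figure D4:**
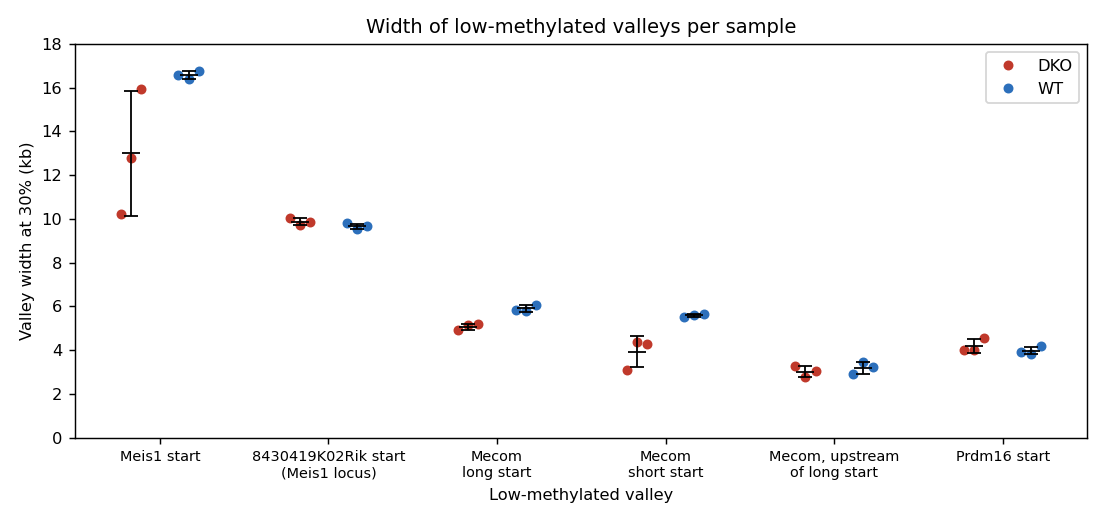
Width in kb of the low-methylated valley around each start, per sample, with mean and SD as black bars (n = 3). DKO and WT do not overlap at the Meis1 start and at both Mecom starts, and overlap at the other 3 valleys.

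The called Mecom windows lie between the 2 starts, far from both. The window 30003001 to 30004000, 405 to 406 kb downstream of the long start and 90.9 to 91.9 kb upstream of the short start, was at 78.9, 91.3 and 91.8% in DKO and at 55.2, 39.3 and 45.5% in WT. This difference of 40.7 points (SE 6.27, adjusted p = 0.0230) was the largest of the windows named here. With its neighbour, as 2 kb chosen after their values were seen, it was at 42.8, 42.0 and 36.1% in DKO and at 14.9, 10.6 and 19.6% in WT. The window 30125001 to 30126000, 283 to 284 kb downstream of the long start, was at 94.0, 92.2 and 91.2% in DKO and at 72.6, 73.7 and 60% in WT (difference 23.8 points, SE 4.46, adjusted p = 0.0409). It was nearly fully methylated in DKO and not in WT.

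Among the Mecom windows with the smallest p, 2 had lower levels in DKO and were not called. The window 30208001 to 30209000, with 5 CpGs, was at 65.7, 81.8 and 90% in DKO and at 100% in every WT sample (difference -20.8 points, SE 7.13, adjusted p = 0.0703). The window 30118001 to 30119000 was at 82.3, 68.4 and 87.0% in DKO and at 95.4, 96.0 and 88.7% in WT (difference -14.1 points, SE 6.06, adjusted p = 0.134). Its difference was -8.71 points without DKO replicate 2 and -7.30 points with equal weight for each CpG. In both, every DKO sample was below every WT sample. Over all CpGs of the locus more than 150 kb downstream of the long start, the level was 88.0, 86.9 and 87.2% in DKO and 85.5, 83.9 and 85.5% in WT, a difference of 2.38 points (SE 0.656, exact permutation p = 0.1).

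At Prdm16 the width of the valley over the start overlapped between the genotypes, and the called windows lay within the gene's long downstream part. The window over the start, 154010001 to 154011000, was at 0, 1.11 and 0.810% in DKO and at 0, 0 and 0.212% in WT (adjusted p = 0.886). The valley was 3.98, 4.01 and 4.55 kb wide in DKO and 3.93, 3.83 and 4.17 kb in WT (difference 0.200 kb, SE 0.209, exact permutation p = 0.5). Its edges were at 45.1% ± 3.94 in DKO and 50.2% ± 3.73 in WT, and these overlapped. The same valley holds the starts of Prdm16os and 5930403L14Rik.

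The window 153985001 to 153986000, 24.98 to 25.98 kb downstream of the Prdm16 start, was at 31.2, 56.5 and 58.6% in DKO and at 9.43, 28.0 and 9.38% in WT (difference 33.2 points, SE 10.8, adjusted p = 0.0290). The window 153915001 to 153916000, 94.98 to 95.98 kb downstream, was at 72.7, 54.3 and 34.8% in DKO and at 24.1, 28.9 and 24.2% in WT (difference 28.2 points, SE 11.1, adjusted p = 0.00298). Without DKO replicate 1 the difference was 18.8 points. The WT samples were close together in it and the DKO samples far apart. The window 153909001 to 153910000, 100.98 to 101.98 kb downstream, was at 69.8, 76.5 and 90.9% in DKO and at 44.8, 38.0 and 34.6% in WT (difference 39.9 points, SE 6.92, adjusted p = 0.0334). The window 153958001 to 153959000, 51.98 to 52.98 kb downstream, was at 97.9, 98.6 and 98.8% in DKO and at 88.3, 76.5 and 85.2% in WT (difference 15.1 points, SE 3.54, adjusted p = 0.0159). It was close to complete methylation in every DKO sample. These windows lie between 24.98 and 101.98 kb from the start, and over the class of 50 to 150 kb the level was 84.9, 86.1 and 84.9% in DKO and 80.9, 80.4 and 80.8% in WT. The groups there did not overlap (difference 4.63 points, SE 0.402, exact permutation p = 0.1), whereas beyond 150 kb they did, at 87.8% ± 1.53 in DKO and 87.3% ± 1.17 in WT. The window 153774001 to 153775000 was at 92.9, 94.5 and 93.8% in DKO and at 92.9, 69.2 and 70.2% in WT and was not called (difference 16.3 points, SE 7.73, adjusted p = 0.0937). Its difference was 5.62 points with equal weight for each CpG.

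**Figure D5:**
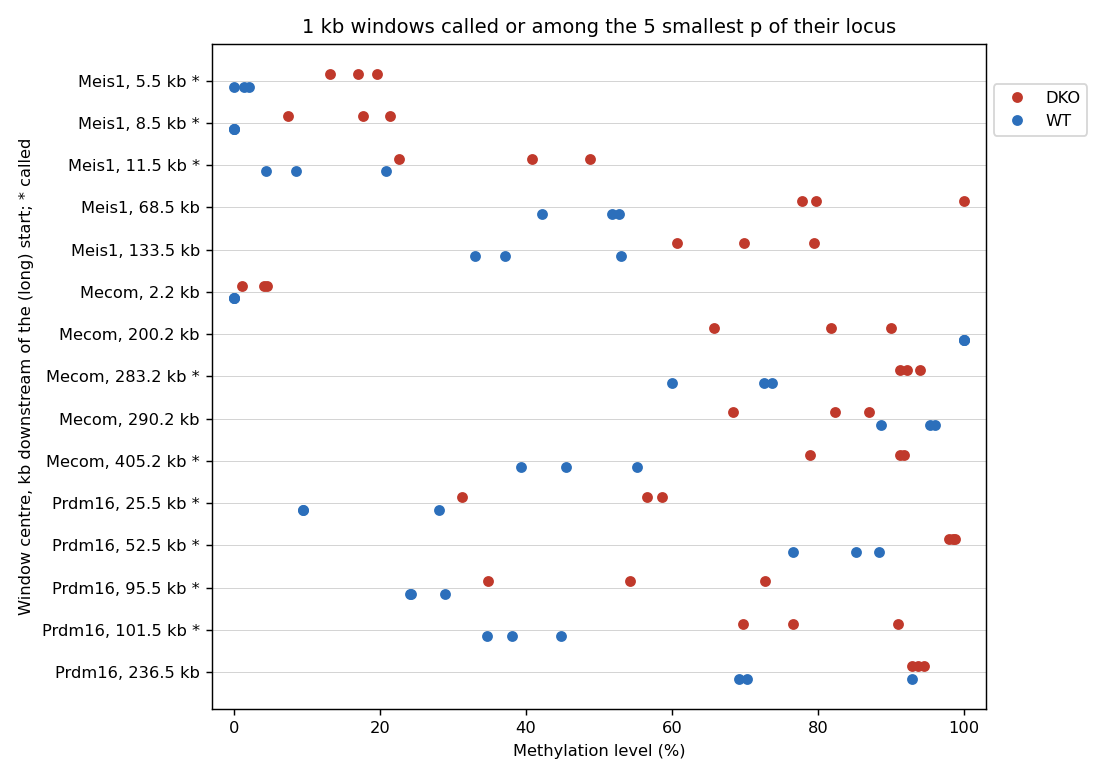
Methylation level (%) per sample of the called windows and of the other windows with the smallest p at each locus; points are samples, rows are labelled by the window centre in kb downstream of the start (the long one for Mecom), and asterisks mark called windows. The DKO samples lie above the WT samples in the 9 called windows, by 15.1 to 40.7 points.

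The called windows rest on few reads and on all 6 samples. Their least covered sample had 26 to 115 reads, and the samples of a group differ widely in some, since the spread of a window is estimated mostly from all windows. When each library was left out in turn, 0 to 2 of the 9 calls were left. Over all autosomes, 160 to 1029 windows were then called higher, against 3952 with all samples. The calls then left at the loci were 18907001 to 18908000 at Meis1 and 153915001 to 153916000 and 153985001 to 153986000 at Prdm16. In windows of 5 kb, 4 of 226 tested at the loci were called and all were higher in DKO. They were 30000001 to 30005000 and 30075001 to 30080000 at Mecom, by 18.9 and 20.1 points, and 153770001 to 153775000 and 153915001 to 153920000 at Prdm16, by 13.3 and 20.1 points. Meis1 had 0 called windows at that size. Over all autosomes, 2541 windows of 5 kb were called higher and 104 lower, so most calls of that size were higher. The number of 5 kb windows tested over all autosomes is not given here. Whether the share called at the loci exceeds the background at that size thus cannot be read from these counts.

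Beside other genes, the start regions of the 3 factors, 5 kb on either side, were among the less methylated. The Meis1 region was at 3.53% ± 0.856 in DKO and 2.83% ± 0.371 in WT, the long Mecom region at 11.4% ± 1.42 in DKO and 8.41% ± 1.75 in WT, and the Prdm16 region at 20.1% in DKO and 18.7% in WT. The short Mecom region was at 27.8% in DKO and 23.3% in WT. The median of all start regions placed and tested, which leave out promoters with fewer than 6 CpGs, was 46.6% over both genotypes. None of the regions of the 3 factors was called. Of all 15727 start regions tested, 0 were called by the quasi-binomial test in either direction (0% higher and 0% lower), while at unadjusted p under 0.05 938 were higher (5.96%) and 282 lower (1.79%), and limma called 11, all higher. By Euclidean distance over the 6 samples, the regions most like that of Meis1 were those of Bahcc1 (2.84 points), Pax2 (2.87) and Sp9 (3.23). Those most like the long Mecom region were Sall1 (2.21), Gm3764 (2.67) and D130079A08Rik (3.07), and most like the short one Gm40743 and Tmcc3, which share a region (5.63), and Ccnd3 (6.45). Those most like Prdm16 were Prdm16os (1.38) and 5930403L14Rik (3.75), which overlap it, and Ankrd13b (4.51).

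Partners and relatives were read from lists, and 0 of their start regions were called by the same test. Of 12 partners and relatives of Meis1, 7 had a placed and tested start, with 8 starts in all. All DKO samples were above all WT samples at 2 of these, against 10.8% of all starts, and the reverse was found at 0, against 3.13%. Those were Hoxa7, a Hox factor of early blood cells, at 12.1% in DKO and 3.81% in WT (difference 8.33 points, SE 1.01, p = 0.000143, adjusted p = 0.450 by the quasi-binomial test), and a start of Hoxa10 at 18.1% in DKO and 14.0% in WT. The other Hoxa10 start was at 19.9% in DKO and 22.8% in WT. Meis2, a close relative of Meis1, was at 7.12% in DKO and 7.47% in WT. Of 13 other members of the Prdm family, 9 were tested with 10 starts, and the DKO samples were all higher at 2, both of Prdm9, a meiotic histone methyltransferase, with 44.7% in DKO and 38.8% in WT at the first. The regions of the Prdm9 starts share CpGs and are not independent. Of 18 other transcription factors of blood stem cells, 10 were tested with 13 starts, and the DKO samples were all higher at 4. These were both starts of Gfi1, a zinc finger repressor, with overlapping regions and differences of 7.14 and 7.25 points, Lyl1 with 2.28 points and Ndn, an imprinted gene, at 69.7% in DKO and 54.3% in WT. A start of Gata2, a zinc finger factor of blood stem cells, had the lowest difference of the list, at 16.7% in DKO and 22.8% in WT (-6.14 points, p = 0.0200, adjusted p = 0.581 by the quasi-binomial test), and its groups overlapped. Median differences were 1.90, 0.72 and 2.05 points for the 3 lists in this order, against 1.12 points over all start regions. Of 8 genes marking LSK cells and early progenitors, 5 were tested, with levels of 16.6 to 76.5% over both genotypes and differences between -2.99 and 10.2 points. All DKO samples were above all WT samples at Procr and below them at Cd48. Of 11 genes marking other blood cells 3 were tested, with differences between 1.58 and 8.06 points.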

How the data were processed

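The authors deposited 1 table that gives, for each CpG and sample, a count of methylated reads and a count of total reads, not normalised and not pooled. The submitters' processing notes name BSMAP 2.74 and mm9; how reads were filtered, trimmed and freed of duplicates is not given in the sources used here, and duplicates would add to the counting error. Starts in the table were read as counted from 0. There were 0 columns of other samples. Depth was 3.46 to 5.46 reads per CpG and sample, too shallow to test single CpGs. Replicates of a group differed beyond sampling noise in coverage of 1 Mb bins (chi-square per degree of freedom 11.8 to 117), so each counted as 1 sample.

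Levels are methylated over total reads, in percent, after summing over CpGs. Tested 1 kb windows lay on autosomes and had 3 or more CpGs and 20 or more reads per sample (774732 windows, 33.2% of those with a CpG). A quasi-binomial model compared the groups; its dispersion, from the residual deviance, was moderated as in limma's squeezeVar (40.4 prior degrees of freedom, floor of 1), with an F test and Benjamini-Hochberg adjustment over all windows. The prior, which bears on which windows are called, is itself uncertain: it was 13.2 with at least 10 reads and 11.4 with at least 40. Start regions were tested likewise, with no minimum difference. Single values were compared by two-sided exact permutation tests. Errors are SD over samples or the SE of a difference. Permutation p-values refer to the values of these samples alone. The quasi-binomial p-values use a spread drawn largely from all windows or start regions. They can thus be small where the samples of a window differ widely.

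Valleys were runs of at least 3 adjacent tested windows with a mean of at most 10%; their ends are where 25 successive CpGs pass 30%, and their edges are the 3 windows on each side. RefSeq promoters (GRCm38.p6) were placed where at least 6 CpGs, and 90% of all, matched in spacing at a single best place: 18150 of 32851 were placed, and 18122 of 18131 neighbouring pairs kept the reference order. Windows named are those called, the 5 with the smallest p per locus and those over the starts. Members, lists and tests were chosen with earlier results of these data known. Python 3.11.15, numpy 2.4.6 and scipy 1.17.1 were used. Alternatives were other read minimums, window sizes, tests, valley settings and sets of samples.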

Additional observations from a re-analysis of the deposited data

How the results depend on the processing

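The number of called windows at the 3 loci, 9 as reported, depended on the settings. It was 1 with a minimum of 10 reads, 1 with 40 reads, 0 with limma on log2 ratios, 55 with Fisher's exact test on pooled reads (51 higher and 4 lower in DKO, with the spread between samples ignored), 0 with windows of 500 bp and 4 with windows of 5 kb. It was 0 to 2 when each library was left out in turn. With the replicate number as a block it was 0, with 53 windows higher and 13 lower at unadjusted p under 0.05. Any pairing of the samples by replicate number was very weak. The correlation of deviations was 0.00332 to 0.00359 for the same number and -0.00204 to -0.00136 for different numbers. The count was 6 with a minimum difference of 20 points, and 9 with none or with centred differences. With Pearson's dispersion, an alternative added after the data were seen, it was 12, of which 11 were higher. Over all autosomes, limma, the replicate block and windows of 500 bp called 0 windows as well. Fisher's exact test called 43039 higher and 7034 lower there, and Pearson's dispersion 5793 higher and 114 lower. With 1 library left out, 160 to 1029 were called higher over the autosomes, against 3952 as reported. The start regions called were 0 as reported and under each other setting except limma, which called 11. The width difference of the 8430419K02Rik valley turned negative with 15 CpGs (-0.0338 kb), 51 CpGs (-0.246 kb), a 20% crossing (-0.118 kb) and a 50% crossing (-0.0370 kb), and that of Prdm16 with 51 CpGs (-0.0512 kb) and a 50% crossing (-0.204 kb). The cause of these changes was not tested. All other single values kept their sign in each alternative run: the partly methylated windows differed by 12.4 to 17.02 points at Meis1, 11.2 to 14.9 at Mecom and 7.63 to 10.8 at Prdm16, the Meis1 locus by 2.58 to 7.23 points, the Mecom locus by 0.467 to 2.38, the Prdm16 locus by 1.39 to 3.57, the Meis1 start valley by -5.08 to -2.21 kb, the long Mecom valley by -2.35 to -0.745 kb and the short one by -1.90 to -0.744 kb. In the paired exact test by replicate number the single values gave p of 0.25 at the least, the smallest that 3 pairs allow. Levels of single windows depended on how CpGs were weighted and chosen. An alternative added after the data were seen gave equal weight to each CpG read in every sample. With it, differences moved by more than the SD of the DKO samples in 7 of the named windows. The parts of depth, weights and choice of CpGs in this were not tested.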
